A study of Mus musculus with 4 samples.

Results

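The pituitary hormone genes are *Gh*, *Prl*, *Pomc*, *Cga*, *Lhb*, *Fshb* and *Tshb*, taken as the probe sets of Mouse Gene 1.0 ST arrays whose platform annotation gives exactly 1 of these symbols. Each of the 7 had 1 such probe set, among 19938 genes that a probe set names alone. The genes were chosen because signals of some of them differed sharply on these same arrays, so their values and differences are given as a description and were not tested. The arrays hold whole-brain RNA of adult C57BL/6J males after ethanol exposure in the period that corresponds to the third trimester. Pups of the ethanol group received subcutaneous ethanol in saline, as 2 doses of 2.5 g/kg spaced 2 hours apart, on postnatal days 4 and 7. Control pups received 0.15 M saline alone, and both groups were separated from the mother during treatment. Per the labels, mice were weaned at day 25 and killed at day 60, whereas the study's methods name other days. Each group has 2 arrays, called control 1, control 3, ethanol 2 and ethanol 4 after their titles, and each array is a pool of equal RNA from 3 males of different litters. A pool cannot show whether its mice differed from each other.

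The anterior pituitary is an endocrine gland that hangs from the base of the brain and secretes peptide hormones under control of the hypothalamus. Somatotrophs make growth hormone (*Gh*), lactotrophs make prolactin (*Prl*), and corticotrophs and melanotrophs make the precursor of ACTH and melanocyte-stimulating hormone (*Pomc*). *Cga* encodes the alpha subunit that pairs with the beta subunits *Lhb*, *Fshb* and *Tshb* to form luteinizing, follicle-stimulating and thyroid-stimulating hormone. *Pomc* is also made by neurons of the arcuate nucleus, whereas *Gh* and *Prl* are known mainly as products of the gland. In bulk RNA of this kind, fewer cells of a type and less RNA per cell cannot be told apart.

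The promoters of *Prl* and *Cga* are shown because these genes, with *Gh*, had the same pattern over the arrays. The sequences are the 250 bases before the transcription start, from RefSeq on GRCm38.p6, chr13:27057320-27057569 on the + strand for *Prl* and chr4:34893529-34893778 on the + strand for *Cga*. Capitals in *Prl* mark the letters ATGNATA on either strand, a pattern of the kind bound by the pituitary factor Pou1f1, and capitals in *Cga* mark TGNCCTTG on either strand, a pattern of the kind bound by Nr5a1.
Prl: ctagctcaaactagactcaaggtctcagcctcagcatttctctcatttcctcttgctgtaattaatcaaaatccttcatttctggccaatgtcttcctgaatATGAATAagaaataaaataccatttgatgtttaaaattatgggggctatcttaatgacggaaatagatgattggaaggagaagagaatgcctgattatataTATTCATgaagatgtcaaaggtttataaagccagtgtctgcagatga
Cga: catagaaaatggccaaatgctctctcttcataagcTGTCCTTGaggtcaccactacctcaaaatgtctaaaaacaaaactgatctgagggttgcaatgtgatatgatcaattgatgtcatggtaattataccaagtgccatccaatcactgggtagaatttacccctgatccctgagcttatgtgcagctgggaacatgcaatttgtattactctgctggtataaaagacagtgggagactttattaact
ATGNATA was found 2 times in the *Prl* window, with first bases at -148 and -47 from the start, and in 7.92% of 32851 promoter windows of the same length. TGNCCTTG was found at -215 in *Cga* and at -129 and -59 in *Lhb*, and in 5.53% of all windows. The letters TATAAA do not overlap the marked letters in *Prl* or *Cga*. They were found on the coding strand at -24 in *Prl* and -30 in *Cga*. The other matched genes held them there too, at -25 in *Pomc*, -31 in *Lhb*, -30 in *Fshb*, and -248 and -27 in *Tshb*. On either strand they were found in 12.4% of all windows. The windows of *Pomc*, *Fshb* and *Tshb* held neither ATGNATA nor TGNCCTTG. A match in letters describes a window and does not show a binding site. RefSeq promoters were matched for 6 of the 7 genes, all but *Gh*.

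*Gh* had log2 signals of 12.24 on control 1, 12.19 on control 3, 12.26 on ethanol 4 and 6.53 on ethanol 2. Thus 3 pools lay within 0.06 of each other and 1 pool lay 5.66 below the lowest of them, a ratio of measured signals of 50.6-fold. *Prl* had log2 signals of 10.21 on control 1, 10.10 on control 3, 10.60 on ethanol 4 and 5.05 on ethanol 2. The same pool was low, 5.05 below the lowest of the others, a ratio of measured signals of 33.1-fold. *Cga*, the shared alpha subunit, had log2 signals of 9.10 on control 1, 9.32 on control 3, 9.39 on ethanol 4 and 5.75 on ethanol 2. The gap of ethanol 2 was 3.34, a ratio of 10.2-fold. These are ratios of signals and not of RNA amounts, since the signals on ethanol 2 were at or near the level of dim probe sets. In all 3 genes the ethanol arrays lay on both sides of the controls, with ethanol 4 above the higher control by 0.02 in *Gh*, 0.39 in *Prl* and 0.07 in *Cga*.

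The other 4 hormone genes had low signals on every array. *Pomc* had log2 signals of 5.95 on control 1, 6.09 on control 3, 5.48 on ethanol 2 and 5.50 on ethanol 4. Both ethanol pools were below both control pools and differed from each other by 0.02, unlike in *Gh*. At signals this low none of the 4 genes had room for a drop like that of *Gh*, so nothing is concluded from the unlike pattern. *Fshb*, the beta subunit of follicle-stimulating hormone, had log2 signals of 6.19 on control 1, 5.89 on control 3, 5.40 on ethanol 2 and 5.76 on ethanol 4. *Lhb*, the beta subunit of luteinizing hormone, had 6.15 on control 1, 5.96 on control 3, 5.47 on ethanol 2 and 6.23 on ethanol 4. For *Lhb* the groups overlapped, with ethanol 4 the highest array and ethanol 2 the lowest, 0.49 below the next. *Tshb*, the beta subunit of thyroid-stimulating hormone, ranged over the 4 arrays from 5.62 on ethanol 2 to 5.90 on control 1.

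**Figure D1:**
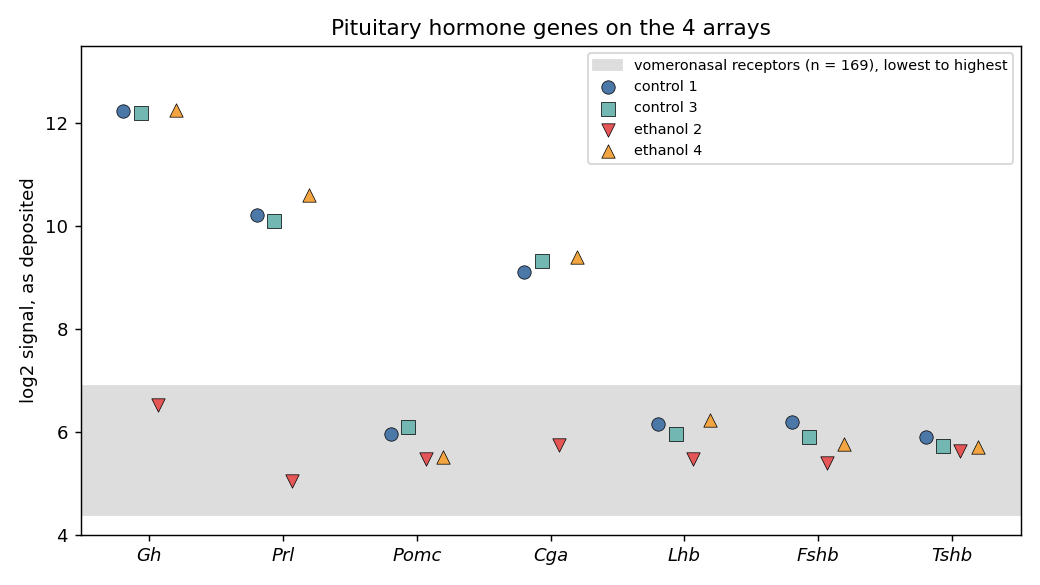
Log2 signal as deposited (vertical axis) of the 7 pituitary hormone genes on each of the 4 arrays, 1 point per array, with the range of 169 vomeronasal receptor probe sets over all arrays in grey. Gh, Prl and Cga are between 9.10 and 12.26 on 3 arrays and between 5.05 and 6.53 on ethanol 2, and the other 4 genes are between 5.40 and 6.23 on every array.

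The deposited table holds no detection calls, so vomeronasal receptors, which are used in a sensory epithelium outside the brain, served as a scale for dim signals. Their 169 probe sets ran from 4.38 to 6.50 on ethanol 2, from 4.52 to 6.77 on ethanol 4, and up to 6.88 on control 1 and 6.81 on control 3. Probe sets differ in brightness. This range therefore does not say which hormone genes were expressed. The signals of *Pomc*, *Lhb*, *Fshb* and *Tshb* lay inside that range on every array, and those of *Prl* and *Cga* did so on ethanol 2, where *Gh*, at 6.53, was just above it. At such signals a difference between the pools is less reliable than at those of *Gh*, *Prl* and *Cga* on the other 3 arrays.

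The difference between the group means (ethanol minus control, n = 2 arrays per group) was -2.82 on the log2 scale for *Gh*, -2.33 for *Prl* and -1.64 for *Cga*. The spread between the ethanol arrays was larger than each of these differences. For *Gh* the SD was 4.05 in the ethanol group and 0.03 in the control group. For *Prl* the SDs were 3.92 and 0.08, and for *Cga* 2.57 and 0.16. The differences of the other genes were -0.53 for *Pomc*, -0.46 for *Fshb*, -0.20 for *Lhb* and -0.16 for *Tshb*. In *Pomc* the SDs were 0.01 and 0.10, in *Fshb* 0.26 and 0.22, in *Lhb* 0.54 and 0.14, and in *Tshb* 0.06 and 0.12.

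The direction of the 3 large differences rested on the ethanol 2 pool. Without it, the difference of ethanol 4 from the controls was 0.04 for *Gh*, 0.44 for *Prl* and 0.18 for *Cga*. Without ethanol 4 it was -5.68 for *Gh*, -5.10 for *Prl* and -3.45 for *Cga*. Leaving out either control gave -2.80 and -2.84 for *Gh*, -2.28 and -2.38 for *Prl*, and -1.75 and -1.53 for *Cga*. *Lhb* also turned from -0.20 to 0.18 without ethanol 2. *Pomc* ran from -0.60 to -0.46 with any 1 array left out, *Fshb* from -0.64 to -0.28, and *Tshb* from -0.24 to -0.07.

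**Figure D2:**
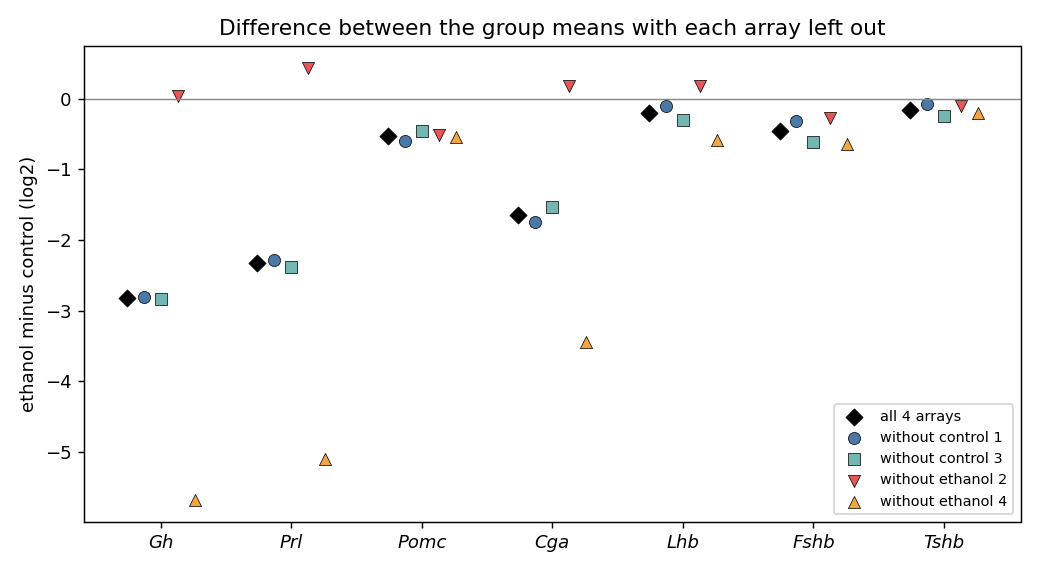
Difference between group means (ethanol minus control, log2, vertical axis) of each hormone gene with all 4 arrays and with each array left out in turn, 1 point per setting. Without ethanol 2 the points of Gh, Prl and Cga lie at 0.04, 0.44 and 0.18, and with all arrays at -2.82, -2.33 and -1.64.

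Signals on the ethanol arrays were lower over the whole table, with a median difference of -0.146 over 35556 probe sets and 80.2% of them below 0. After a second quantile normalization of the 4 arrays the median was -0.004. The differences were then -2.74 for *Gh*, -2.23 for *Prl*, -1.49 for *Cga*, -0.35 for *Pomc*, -0.27 for *Fshb*, -0.01 for *Lhb* and 0.03 for *Tshb*. *Tshb* therefore changed sign with the scaling, and *Pomc* and *Fshb* kept the groups apart in both forms. As deposited, 3 of the 7 genes had both ethanol arrays below both controls, as did 52.7% of all probe sets, and 2 of the 7 did after quantile normalization, as did 24.9%. As the genes were picked on this contrast, nothing is read from these counts, and no test is given for them.

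For control 1 and ethanol 4 the labels conflict, since the titles and source names, which were followed, give one treatment and a separate treatment entry gives the opposite one. Both readings place ethanol 2 with the ethanol group. When the arrays were grouped by that entry, the differences were -2.84 for *Gh*, -2.72 for *Prl* and -1.93 for *Cga*, and -0.08 for *Pomc*. The large differences thus kept their direction under either reading, and most of the *Pomc* difference was lost. On control 3 and ethanol 2, the pair for which all labels agree, *Gh* differed by -5.66, *Prl* by -5.05 and *Cga* by -3.57.

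To see how far single pools stood apart in other genes, the distance of each array below the lowest of the other 3 was taken for every probe set. On ethanol 2 this distance was 1 or more for 17 probe sets (0.0478% of all, and 0.0309% after quantile normalization), of which 14 name no gene and 3 name *Gh*, *Prl* and *Cga*. On control 1 there were 108 (0.304%), on control 3 there were 49 (0.138%) and on ethanol 4 there were 42 (0.118%), of which 4, 0 and 1 name 1 gene. Of the probe sets that name 1 gene, 3 on ethanol 2 were 2 or more below the other arrays, again *Gh*, *Prl* and *Cga*. There was 1 on control 1, *Arfgap2*, a GTPase-activating protein of the Golgi, at 6.29 against 9.21 to 9.33. There was none on the other arrays.
The genes next to the hormones on ethanol 2 had much smaller distances. They began at 0.79 with *Rpl12*, a ribosomal protein, and 0.78 with the odorant receptor *Olfr1029*, and the fifteenth gene, *Olfr1453*, was at 0.53. Among these 15 were 7 odorant receptors and the taste receptor *Tas2r117*, gene families of sensory epithelia. *Dlk1*, an imprinted gene that is also expressed in the anterior pituitary, was ninth. It had log2 signals of 9.26 on control 1, 9.12 on control 3, 9.07 on ethanol 4 and 8.49 on ethanol 2, a distance of 0.58 (0.53 after quantile normalization). As deposited, ethanol 2 was the lowest array in 48.6% of all probe sets, and in 25.7% after quantile normalization.

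**Figure D3:**
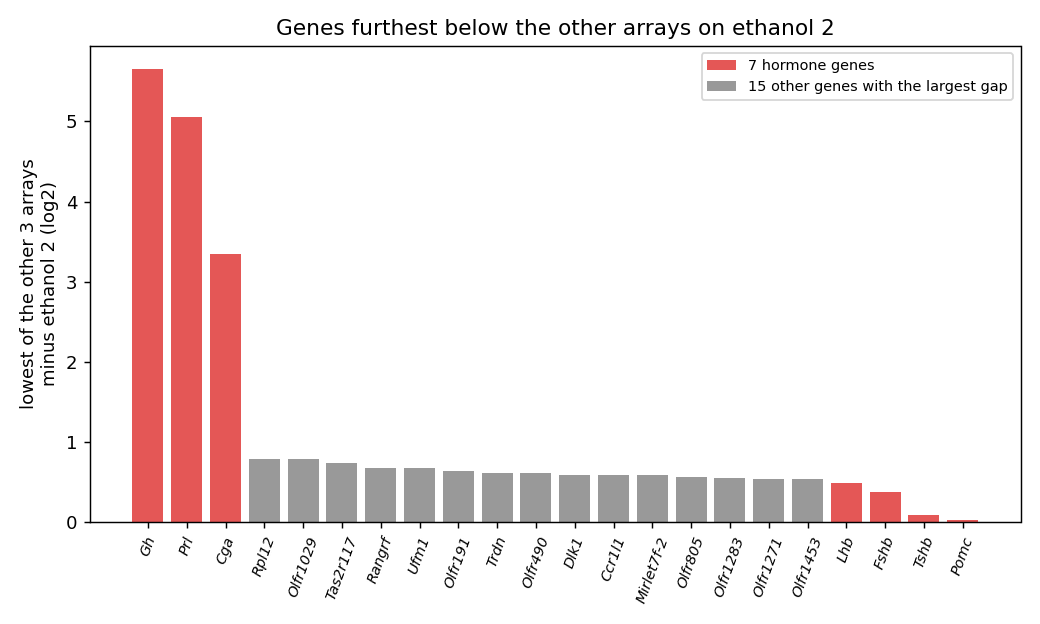
Distance of ethanol 2 below the lowest of the other 3 arrays (log2, vertical axis) for the 7 hormone genes in red and, in grey, the 15 other genes with the largest distance, as deposited. Gh, Prl and Cga stand at 5.66, 5.05 and 3.34, and the first of the other genes at 0.79.

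Genes that pituitary cells use to become and remain endocrine cells had mostly dim signals on every array. Of 14 listed transcription factors, 11 were measured, and of 11 receptors for hypothalamic factors, all 11. On control 1, control 3 and ethanol 4, 17 of the 22 were no brighter than the brightest vomeronasal receptor, among them all 11 transcription factors. These 17 had no room for a drop like that of *Gh*, so their values on ethanol 2 say nothing of pituitary tissue in that pool. The 5 brighter genes were *Trhr*, *Crhr1*, *Drd2*, *Sstr1* and *Sstr2*, all of them receptors that neurons also use, and on ethanol 2 they were at most 0.19 below the other arrays. The study's limits are 1.2-fold and an unadjusted p of 0.05, here from limma. None of the 22 was past them in either direction, beside 20.1% of all probe sets, and none was after quantile normalization, beside 11.6%. None had an adjusted p under 0.05 in limma, as did 0.00281% of all probe sets. The count at an unadjusted p under 0.05 was 0, and the methods' test per probe set also placed 0 past the limits. Their median difference was -0.12, beside -0.146 for all probe sets, and 0.04 after quantile normalization. The summed signal of the 22 genes, on the linear scale, was 2790 and 2810 on the controls, 2580 on ethanol 2 and 2700 on ethanol 4.
Single genes of these lists were at most 0.28 below the other arrays on ethanol 2. This was *Pax7*, a factor of melanotrophs, with 6.74 on control 1, 6.46 on control 3, 6.19 on ethanol 2 and 6.50 on ethanol 4. *Ghrhr*, the receptor through which hypothalamic hormone drives somatotrophs, had 6.38 on ethanol 2, which was 0.23 below the lowest of the others, and 6.67 on both control 1 and ethanol 4. *Gnrhr*, the receptor of gonadotrophs, ran from 4.73 on ethanol 2 and 4.83 on ethanol 4 to 5.03 on control 3. *Trhr*, the receptor of thyrotrophs and lactotrophs, differed by -0.27 with all arrays and was past the limits, as the only one of the 22, when ethanol 4 was left out (-0.37), beside 12.8% of all probe sets that were lower past the limits in that setting. With 1 ethanol array left out the other is alone in its group and is assumed to vary like the controls, here and in the counts past the limits without ethanol 2. *Drd2*, the dopamine receptor that restrains lactotrophs and is abundant in striatum, ran from 9.75 to 9.79. The part of pituitary tissue in the hormone signals of ethanol 2 was not tested, and the labels mention no pituitary.

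The placental relatives of prolactin, a family of genes used in the placenta and not in brain, gave a further scale for *Prl*. Their 19 probe sets ran from 4.52 to 5.56 on ethanol 2 and from 4.79 to 5.88 on control 1, and the largest distance of ethanol 2 below the other arrays was 0.28, in *Prl7a2*. As deposited 4 of the 19 were lower past the limits and none higher, beside 17.9% and 2.23% of all probe sets. After quantile normalization 0 were lower and 1 higher, *Prl7c1*, beside 5.87% and 5.71% of all probe sets. *Prl8a8* was at -0.34 with all arrays and at -0.34 without ethanol 2. After quantile normalization it was at -0.19 and not past the limits, and grouped by the treatment entry it was at -0.01.

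On the hypothalamic side of the axis, 16 of 17 listed releasing factors and neuropeptides were measured. As deposited none of the 16 was past the limits, beside 20.1% of all probe sets. Their median difference was -0.12, beside -0.146 for all probe sets, and 1, *Trh*, had an unadjusted p under 0.05 in limma. *Th*, which makes the dopamine that restrains prolactin release, had log2 signals of 7.90 and 8.16 on the controls, 8.27 on ethanol 2 and 8.73 on ethanol 4. Its difference of 0.47 (standard error 0.19, limma adjusted p = 0.247) was past the limits without ethanol 2 (0.70, where 2.42% of all probe sets were higher and 9.84% lower) and after quantile normalization (0.61), and was -0.36 when grouped by the treatment entry. *Cartpt*, an appetite peptide, was at -0.28 (adjusted p = 0.257 in limma) and oxytocin (*Oxt*) at -0.27 (adjusted p = 0.229 in limma). *Ghrh*, which drives *Gh*, had 5.89 and 6.11 on the controls, 5.79 on ethanol 2 and 5.92 on ethanol 4, and *Sst*, which restrains it, had 11.92, 11.72, 11.70 and 11.87. Neither of these separated the groups.

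Of 10 measured genes for hormone processing and the secretory granule, *Vgf* alone was past the limits, beside 20.1% of all probe sets. It is a granule protein of neurons and endocrine cells, and had log2 signals of 8.76 and 8.63 on the controls, 8.11 on ethanol 2 and 8.32 on ethanol 4. It differed by -0.48 (standard error 0.11, limma adjusted p = 0.173), and by -0.38 without ethanol 2. After quantile normalization it differed by -0.35 and was the only 1 of the 10 past the limits, beside 5.87% of all probe sets that were lower past them. Grouped by the treatment entry it was at -0.04. *Scg2*, secretogranin II, was at -0.22 and *Pcsk1n*, an inhibitor of the prohormone convertase, at -0.20, neither past the limits.

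Receptors and targets of the hormones in brain mostly fell short of the limits. Of 10 listed receptors 8 were measured. Those of prolactin (*Prlr*) and luteinizing hormone (*Lhcgr*) were not, as no probe set names them alone. Of the 8, 1 was lower past the limits, beside 17.9% of all probe sets. It was the melanocortin receptor *Mc1r*, at -0.37 (standard error 0.09, limma adjusted p = 0.174). Grouped by the treatment entry it was at 0.08 and not past the limits. After quantile normalization it fell short of the limits, at -0.19. *Mc5r*, at 0.31, was then the only one of the 8 past them, beside 11.6% of all probe sets. Both *Mc1r* and *Mc5r* lay inside the range of the vomeronasal receptors on every array, where differences are less reliable. The growth hormone receptor *Ghr* had log2 signals of 7.85 and 7.91 on the controls, 7.82 on ethanol 2 and 7.86 on ethanol 4. Of 9 genes of growth hormone and prolactin signalling, none was past the limits, beside 20.1% of all probe sets. Of these 9, 1, *Stat5b*, had an unadjusted p under 0.05 in limma, at -0.24. *Igf1*, the main growth hormone target, was at 0.15 (standard error 0.11, limma adjusted p = 0.434). After quantile normalization it was at 0.30 and the only one of the 9 past the limits, beside 11.6% of all probe sets. *Stat5a* was at -0.29 and *Socs3* at -0.18. Of 5 other glycoprotein hormone and opioid precursor genes none was past the limits, beside 20.1% of all probe sets. After quantile normalization *Pnoc*, at 0.32, was the only one of the 5 past them, beside 11.6%.

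**Figure D4:**
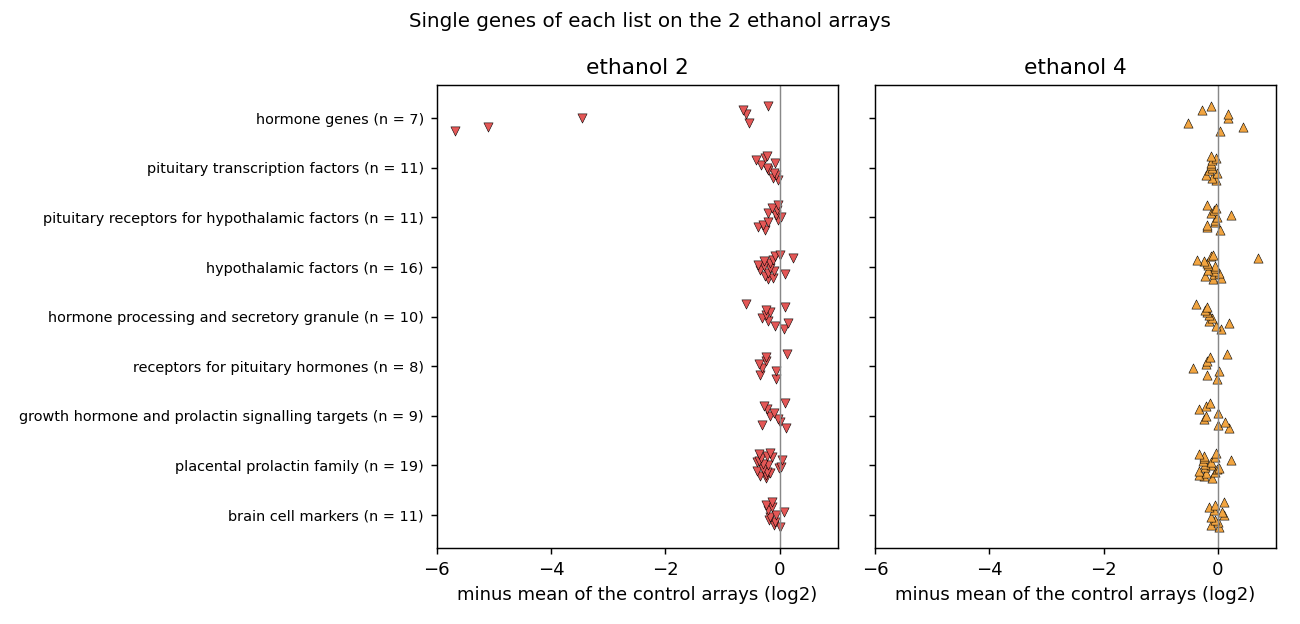
Log2 signal of each gene on ethanol 2 (left) and ethanol 4 (right) minus the mean of the control arrays (horizontal axis, log2), 1 point per gene, in 9 gene lists. Only Gh, Prl and Cga, on ethanol 2, lie below -3, and the 22 pituitary transcription factor and receptor genes lie from -0.41 to 0.01 on ethanol 2 and from -0.21 to 0.22 on ethanol 4.

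Markers of brain cells and of tissues next to the brain were read in the same way. Of 11 brain cell markers none was past the limits, beside 20.1% of all probe sets. Their median difference was -0.11, and the neuronal *Snap25* ran from 13.28 to 13.34. On ethanol 2 the largest distance below the other arrays over these lists was 0.29, in the collagen gene *Col1a2* of the meninges. Lower past the limits as deposited were 2 of 8 choroid plexus markers (*Kl* at -0.42 and *F5* at -0.28), 1 of 8 meningeal markers (*Slc22a6* at -0.39), 1 of 3 peripheral nerve markers (*Pmp2* at -0.45), 2 of 6 skeletal muscle markers (*Myh4* at -0.56 and *Tnnt3* at -0.40) and 1 of 8 hypothalamic regional markers (*Six3* at -0.37). The share of all probe sets was 17.9%. None of these markers was higher past the limits. Grouped by the treatment entry none of these 7 genes was past the limits, and *Myh4* was at 0.29 and *Tnnt3* at 0.18. Control 1 stood apart in muscle markers, with a summed linear signal of 506 for the 6 genes against 360 on control 3, 351 on ethanol 2 and 317 on ethanol 4. *Myl1*, a myosin light chain, was at 6.59 on control 1 and at 5.52 to 5.67 on the others. The part of muscle tissue in these values was not tested. None of 5 pineal and 2 blood markers passed in either direction, beside 20.1% of all probe sets. The blood markers were *Alas2* and *Slc4a1* only, since no probe set names the listed hemoglobin genes *Hba-a1*, *Hbb-b1* and *Hbb-b2* alone. With all arrays, 80.2% of all probe sets had a difference below 0. Without ethanol 2 the 7 genes that were lower past the limits remained below 0, which does not mean that they stayed past the limits. Only differences are given for this setting, since ethanol 4 was then alone in its group. *Kl* was then at -0.37, *F5* at -0.24, *Slc22a6* at -0.46, *Pmp2* at -0.34, *Myh4* at -0.62, *Tnnt3* at -0.41 and *Six3* at -0.37. The choroid plexus marker *Slc4a5* was at -0.40 and the peripheral nerve marker *Prph* at -0.43, against -0.27 and -0.28 with all arrays. After quantile normalization *Pmp2*, at -0.31, was the only marker of these lists past the limits, beside 11.6% of all probe sets. The smallest limma adjusted p of these lists was 0.171.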

How the data were processed

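Total RNA of whole brains was pooled from 3 males per array and hybridized to Mouse Gene 1.0 ST arrays. The authors made 1 log2 value per probe set with Partek Genomics Suite (6.6 per the labels, another version in the methods) using RMA with GC adjustment and quantile normalization, and deposited these values. The deposited array medians still differ, from 6.33 to 6.61. There are no counts, and precision is limited by having 4 arrays.

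Groups follow the titles and source names. Replicates are pools of different mice. No 2 arrays held identical values. Gene symbols came from the platform annotation, which names no build. Of 35556 probe sets 21789 name 1 gene, and the 7 hormone genes all matched by Entrez ID. The hormone genes and lists were chosen with earlier results of these data known. A listed gene without a probe set naming it alone was not analysed here, and otherwise its brightest probe set was used.

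All probe sets were fitted with limma 3.58.1 in R 4.3.3 (two-sided, 2 residual and 2.57 prior degrees of freedom), with Benjamini-Hochberg adjustment over all of them, and the fit was tested on simulated data. The naming rule took the 7 genes, list genes past the limits or with a distance of 0.5 or more (pituitary lists) or the 3 largest differences (other lists), and the 15 genes most distant on ethanol 2 (3 on other arrays). Not every gene that the rule took is named in the text. Genes named beyond this rule, among them *Pax7*, *Ghrhr*, *Gnrhr*, *Trhr*, *Drd2*, *Crhr1*, *Sstr1*, *Sstr2*, *Ghrh*, *Sst*, *Ghr*, *Igf1*, *Mc5r*, *Prl7a2*, *Prl7c1* and *Snap25*, were chosen after their values were seen. Alternatives were a second quantile normalization, median centring, the treatment entry, an intensity trend, a mean log2 of at least 5, the methods' test, a 1.5-fold limit, each array left out and both replicate blocks.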

Additional observations from a re-analysis of the deposited data

How the results depend on the processing

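With 1 array left out, the differences ran from -5.68 to 0.04 for *Gh*, -5.10 to 0.44 for *Prl*, -3.45 to 0.18 for *Cga*, -0.58 to 0.18 for *Lhb*, -0.60 to -0.46 for *Pomc*, -0.64 to -0.28 for *Fshb* and -0.24 to -0.07 for *Tshb*. The 4 upper values above 0 are those without ethanol 2. Centring on array medians gave -2.61, -2.12 and -1.43 for *Gh*, *Prl* and *Cga*, -0.32 for *Pomc*, 0.01 for *Lhb* and 0.06 for *Tshb*. A second quantile normalization gave -0.35 for *Pomc* and 0.03 for *Tshb*. The treatment entry gave -0.08 for *Pomc*, -0.03 for *Fshb* and 0.04 for *Tshb*, and control 3 with ethanol 2 alone gave -0.61 for *Pomc* and -3.57 for *Cga*. The causes were not tested.

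Over all probe sets 794 were past the limits and higher and 6369 lower. The numbers were 2030 and 2086 after quantile normalization, 3231 and 1392 after centring, 326 and 244 by the treatment entry, 272 and 2882 by the methods' test, and 405 and 1289 at 1.5-fold. With 1 array left out, 713 to 969 were higher and 3485 to 6458 lower, with 3485 without control 1 and 3499 without ethanol 2. The labels do not say which pools share litters, so both pairings were run as a replicate block, which gave 977 and 6038 (control 1 with ethanol 2) or 831 and 5932 (control 1 with ethanol 4). The differences of the hormone genes are the same under a block. Of the 22 pituitary transcription factor and receptor genes none was higher in any alternative, and 0 to 1 lower, the 1 being *Trhr* without ethanol 4. Probe sets at least 1 below the other arrays on ethanol 2 numbered 17 as deposited, and 11 after quantile normalization and 11 after centring. The values of the other lists without ethanol 2 were added after seeing the data.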

Other observations

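On control 1 and ethanol 4 genes of other kinds were far below the remaining arrays. On control 1, *Rbbp6*, at 6.29 against 7.97 to 8.44, and *Hacd2*, at 7.72 against 9.13 to 9.43, were low beside *Arfgap2*. On ethanol 4, the splicing factor *Srsf3* was at 6.73 against 7.78 to 8.26. None of these was tested.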
